A study of Mus musculus with 32 samples.

Results

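Growing oocytes from mouse ovaries at postnatal day 14 that carried an altered histone H3.3 were set against growing oocytes that carried an unaltered one. There were 2 libraries with the genotype label H3.3K4M transgenic (replicates, rep, 1 and 2) and 2 libraries with the genotype label H3.3WT transgenic (rep 1 and 2). They were chosen by sample title and are 4 of the 32 libraries of the series. K4M stands for methionine in place of lysine 4. Both groups thus carried a transgene for H3.3, both were untreated, and the change at lysine 4 is what separates them in the labels. Not given in the sources used here are the driver of the transgene, its copy number, the strain, and how many oocytes or animals went into a library. Since nothing says that replicates came from separate animals, p-values speak for the spread between these libraries alone, and it may be technical.

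Methylation of H3 lysine 4 marks active and poised promoters, and in mouse it is laid down by the Kmt2 and Setd1 enzymes and removed by the Kdm1 and Kdm5 enzymes. H3.3 with methionine at this position interferes with that methylation and is used to lower it. Growing mouse oocytes gain the mark over unusually broad domains, a gain that depends largely on the methyltransferase Kmt2b, at the time when they take on DNA methylation and make the RNA on which the egg and the early embryo live. Many of their transcripts start in long terminal repeats (LTRs) of endogenous retroviruses, above all in the MT family.

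RNA was measured with Smart-seq2, which makes full-length cDNA from little RNA. The deposited tables hold read counts for 55335 genes and 1153 repeat subfamilies, with totals of 27212431 and 33966768 in H3.3K4M rep 1 and 2 and of 33886943 and 31041898 in H3.3WT rep 1 and 2. Levels are given as CPM, the usual scaling of counts to a common library total (here after TMM correction of the totals), for rep 1 and then rep 2 of a group. They depend on transcript length, so they are compared between libraries and not between genes. A gene or subfamily is called higher or lower with H3.3K4M at an adjusted p under 0.05 in edgeR's quasi-likelihood test, and log2 fold changes, H3.3K4M over H3.3WT, carry their standard error (SE). Without a stated spike-in, a change is one relative to all other RNA of a library.

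Oocyte markers were abundant in all 4 libraries. The zona pellucida gene Zp3 had 11003 and 9669.5 CPM with H3.3K4M against 9177 and 9748 CPM with H3.3WT. Growth factor Gdf9, which oocytes secrete, had 12904 and 9728 CPM in H3.3K4M oocytes against 10038 and 13883 CPM in H3.3WT oocytes. Sums of markers were scaled by plain library totals without TMM correction, so they are not on the scale of the single genes. The 11 oocyte markers summed to 35781 and 34050 CPM in H3.3K4M libraries against 34228 and 35254 CPM in H3.3WT libraries, so the groups overlapped. Most markers of granulosa cells, which surround the oocyte, were close to 0. The anti-Müllerian hormone gene Amh had 0 counts in all 4 libraries. Foxl2, which defines granulosa cells, had 2 and 1 counts in H3.3K4M libraries and 1 and 1 counts in H3.3WT libraries. Serpine2 was an exception, with 9478 and 11720 counts in H3.3K4M libraries against 12528 and 13365 counts in H3.3WT libraries. The 18 granulosa markers summed to 407 and 399 CPM in H3.3K4M libraries against 435 and 492 CPM in H3.3WT libraries, and without Serpine2, Esr2 and Nr5a2, which took nearly all of it, to 6.10 and 4.15 CPM with H3.3K4M against 9.41 and 8.09 CPM with H3.3WT. Theca and stroma markers (15) summed to 8.16 and 8.01 CPM with H3.3K4M against 5.05 and 5.09 CPM with H3.3WT. Surface epithelium markers (7) summed to 8.19 and 7.27 CPM with H3.3K4M against 1.24 and 1.71 CPM with H3.3WT. Blood, immune and endothelial markers (14) summed to 37.9 and 34.7 CPM with H3.3K4M against 35.3 and 26.5 CPM with H3.3WT. The surface epithelium sum was almost all Krt8, a keratin, with 220 and 243 counts in H3.3K4M libraries and 39 and 51 counts in H3.3WT libraries. Krt19 and Upk1b were at 0 in every library. Single markers were called in both directions. Aromatase Cyp19a1 was lower, with 0.286 and 0.532 CPM with H3.3K4M against 4.09 and 3.53 CPM with H3.3WT, as was Kit ligand Kitl, with 0 and 8 counts in H3.3K4M libraries against 56 and 44 counts in H3.3WT libraries. Fshr, the receptor of follicle-stimulating hormone, had 17 and 6 counts in H3.3K4M libraries against 50 and 31 counts in H3.3WT libraries. Inhibin alpha Inha was higher, with 4.49 and 1.79 CPM in H3.3K4M oocytes against 0.635 and 0.915 CPM in H3.3WT oocytes. These markers of granulosa cells thus went both ways. Of 5 theca and stroma markers tested 2 were higher and none lower. The smooth-muscle actin gene Acta2 had 44 and 27 counts in H3.3K4M libraries against 3 and 0 counts in H3.3WT libraries (4.67 ± 0.76; edgeR adjusted p = 0.000857). Hsd3b1, of steroid synthesis, had 102 and 100 counts with H3.3K4M against 31 and 59 counts with H3.3WT. The complement gene C1qb was higher, with 763 and 917 counts with H3.3K4M against 760 and 456 counts with H3.3WT. The calls of Fshr, Hsd3b1 and C1qb were lost with 1 library left out (edgeR adjusted p up to 0.229, 0.151 and 0.223), which was H3.3K4M rep 2 or H3.3WT rep 1 for Fshr, H3.3WT rep 1 for Hsd3b1, and H3.3K4M rep 1 or H3.3WT rep 2 for C1qb. The endothelial adhesion gene Pecam1 had 0.939 and 0.869 CPM in H3.3K4M libraries and 6.32 and 5.82 CPM in H3.3WT libraries, with Cdh5, which defines endothelium, at 0 in every library. In bulk libraries fewer cells of a type and less RNA per cell cannot be told apart, and the part of other cells in the results was not tested.

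Growing oocytes with H3.3K4M differed from those with H3.3WT in a large share of the genes measured, and the decreases were the deeper changes. Of 15386 genes with enough counts to test, 3444 (22.4%) were called: 2115 (13.7%) lower and 1329 (8.64%) higher with H3.3K4M. Among those called lower the median log2 fold change was -1.86, and among those called higher it was 0.91. At least 2-fold changes numbered 1673 lower (10.9% of genes tested) and 559 higher (3.63%), at least 4-fold changes 977 lower and 103 higher, and at least 8-fold changes 462 lower and 24 higher. The plot of mean levels shows this asymmetry as a wide spread of genes above the diagonal. The median over all genes tested was 0.0026 on the log2 scale. The split of calls went with the level of the gene. With genes in 3 equal groups by mean CPM, 1025 were lower and 260 higher in the lowest group. In the middle group 687 were lower and 448 higher. In the highest group 403 (7.86%) were lower and 621 (12.1%) higher, so higher calls outnumbered lower ones there. Genes with a count numbered 22375 and 23233 in H3.3K4M libraries against 24695 and 24047 in H3.3WT libraries. Across genes, log2 levels correlated at r = 0.989 between the 2 H3.3K4M libraries and 0.992 between the 2 H3.3WT libraries, against 0.951 to 0.958 between libraries of different groups. Of the calls, 1687 held whichever single library was left out; without H3.3WT rep 1 the count was 2171 (667 higher, 1504 lower). It was 725 (71 higher, 654 lower) when 4 metaphase II (MII) oocyte libraries with the genotype label WT (2 from 8-week and 2 from 12-month females) shared the fit, in which 124 of the 185 calls of genes and subfamilies named by rule were lost; the cause was not tested.

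**Figure D1:**
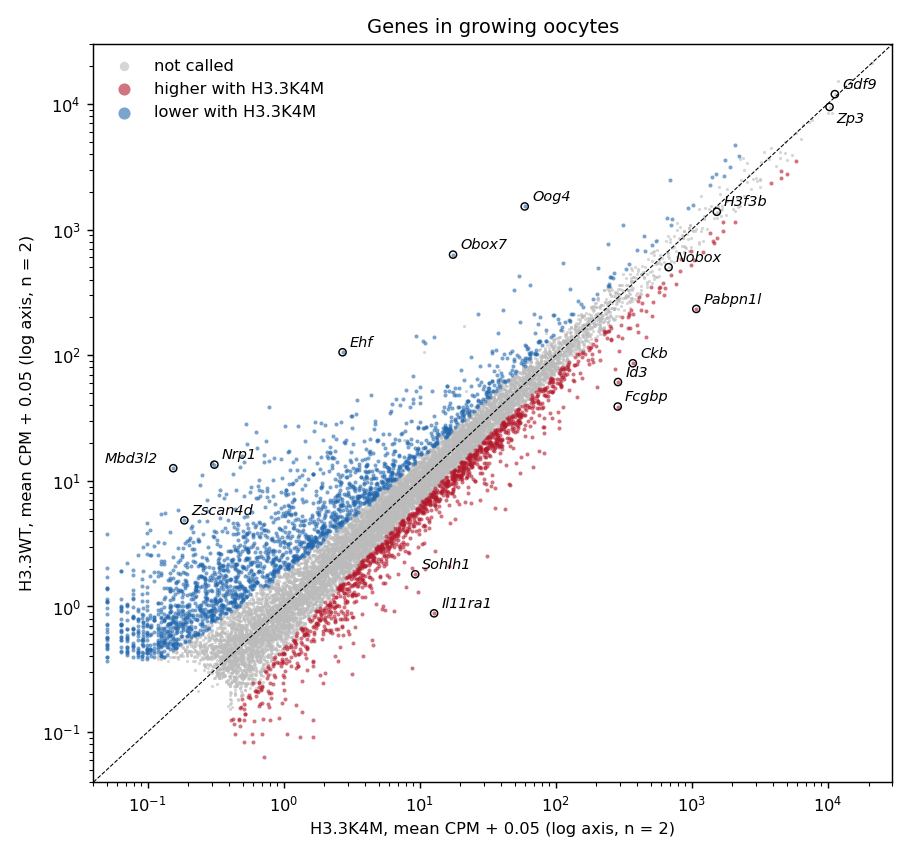
Each point is 1 of 15386 genes, with the mean level in 2 H3.3K4M libraries on the horizontal axis and in 2 H3.3WT libraries on the vertical axis, in CPM plus 0.05 on log axes; the dashed line marks equal levels. Genes called lower with H3.3K4M (blue, 2115) lie up to far above the line, genes called higher (red, 1329) mostly close below it, and circled genes such as Zp3 and Gdf9 lie near it.

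Changes were ranked among genes that reached 10 CPM in the higher group, had no overlap between the groups and had calls that held without any 1 library. Predicted gene models, such as symbols of Gm plus digits or ending in Rik, were left out of the ranking. The largest decrease in it was that of Mbd3l2, a gene related to the methyl-CpG-binding protein gene Mbd3. Mbd3l2 had 0.0408 and 0.168 CPM with H3.3K4M against 12.3 and 12.8 CPM with H3.3WT, a log2 fold change of -6.72 ± 0.37 (edgeR adjusted p = 4.94e-07). These levels rest on 1 and 6 counts in H3.3K4M libraries and 444 and 393 counts in H3.3WT libraries. The homeobox gene Obox7 and the oogenesin Oog4, both of oocyte gene families, were also among the largest decreases. Obox7 had 16.2 and 18.9 CPM in H3.3K4M oocytes against 614 and 649 CPM in H3.3WT oocytes (-5.17 ± 0.20; edgeR adjusted p = 5.29e-08). Oog4 had 68.3 and 50.2 CPM in H3.3K4M libraries and 1463 and 1592 CPM in H3.3WT libraries (-4.69 ± 0.23; edgeR adjusted p = 2.38e-07). Separation of the groups was a condition of the ranking, so it is no added result for these genes. Nrp1, a receptor for semaphorins and VEGF, had 0.408 and 0.112 CPM (10 and 4 counts) with H3.3K4M against 13.3 and 13.5 CPM with H3.3WT (-5.80 ± 0.37). The epithelial ETS factor Ehf had 2.53 and 2.80 CPM in H3.3K4M oocytes against 98.4 and 113 CPM in H3.3WT oocytes (-5.30 ± 0.20). The B-cell surface gene Ms4a1 stood at 0.612 and 0.252 CPM in H3.3K4M libraries and 13.8 and 11.7 CPM in H3.3WT libraries. The alpha-catenin gene Ctnna3 stood at 1.67 and 0.785 CPM with H3.3K4M against 27.1 and 27.4 CPM with H3.3WT. Each of the last 4 genes stayed under 3 CPM in both H3.3K4M libraries. The other decreases named by the rule were Tex26 (-5.91), Zfp735 (-5.67), Pdzph1 (-5.32), the antisense gene BB031773 (-4.97), the pseudogene Cyp2c53-ps (-4.88), Tctex1d1 (-4.85), Mroh2b (-4.53) and Zfp616 (-4.34). Tctex1d1 and BB031773 overlap in part on opposite strands of chromosome 4. Reads from the shared stretch cannot be told apart if strand was not used in counting, which is not stated. In all, 28 genes were called lower with 0 counts in both H3.3K4M libraries, and none was called higher with 0 counts in both H3.3WT libraries. One of the 28 was the serpin Serpinb9c, with 60 and 31 counts in H3.3WT libraries.

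The largest increases were smaller. The cytokine receptor gene Il11ra1 had 12.7 and 12.8 CPM in H3.3K4M oocytes against 0.552 and 1.11 CPM in H3.3WT oocytes (3.96 ± 0.29; edgeR adjusted p = 2.73e-06). Fcgbp, which encodes a mucin-like IgG Fc-binding protein, had 292 and 281 CPM in H3.3K4M libraries and 34.7 and 43.2 CPM in H3.3WT libraries (2.88 ± 0.18). The most abundant gene of this set was Pabpn1l, an oocyte poly(A)-binding protein gene, with 1109 and 1057 CPM with H3.3K4M against 210.2 and 257 CPM with H3.3WT (2.21 ± 0.19). Id3, an inhibitor of helix-loop-helix factors, had 311 and 264 CPM in H3.3K4M oocytes against 58.2 and 64.1 CPM in H3.3WT oocytes. Brain creatine kinase Ckb had 384 and 356 CPM in H3.3K4M libraries and 84.2 and 88.2 CPM in H3.3WT libraries. Alpha-tubulin Tuba1a stood at 70.2 and 38.3 CPM with H3.3K4M against 12.5 and 10.5 CPM with H3.3WT. Haus1 encodes a subunit of the augmin complex, which nucleates microtubules within the spindle, and had 87.9 and 77.9 CPM in H3.3K4M oocytes against 13.5 and 19.8 CPM in H3.3WT oocytes. The groups did not overlap in any of these genes, which the ranking required, and the H3.3K4M libraries of Tuba1a lay far apart. The others named by the rule were Skint5 (3.002), Popdc2 (2.84), Tex19.2 (2.59), Rilpl1 (2.40), the myosin Myo9b (2.31), the homeobox gene Emx2 (2.27), Olfm1 (2.26) and Angptl2 (2.12).

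Lower calls were more frequent among genes whose promoters are poor in CpG, and promoters of named genes show the range. Each runs 250 bases before to 50 bases after the start of the gene in RefSeq (GRCm38.p6), is written 5′ to 3′ on the strand of the gene, and has each CG in capitals. They were chosen after their values were seen, to span the range of CpG content among the named genes: 3 decreases (Mbd3l2, chr9:18430365-18430664, plus strand; Oog4, chr4:143450275-143450574, minus strand; Ctnna3, chr10:63429848-63430147, plus strand) and 2 increases (Fcgbp, chr7:28070986-28071285, plus strand; Myo9b, chr8:71272464-71272763, plus strand).
Mbd3l2: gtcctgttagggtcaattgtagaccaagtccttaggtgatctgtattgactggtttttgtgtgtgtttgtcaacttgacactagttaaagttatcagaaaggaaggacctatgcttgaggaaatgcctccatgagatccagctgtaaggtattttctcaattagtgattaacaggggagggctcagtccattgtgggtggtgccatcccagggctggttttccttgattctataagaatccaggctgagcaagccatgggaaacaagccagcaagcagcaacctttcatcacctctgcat
Oog4: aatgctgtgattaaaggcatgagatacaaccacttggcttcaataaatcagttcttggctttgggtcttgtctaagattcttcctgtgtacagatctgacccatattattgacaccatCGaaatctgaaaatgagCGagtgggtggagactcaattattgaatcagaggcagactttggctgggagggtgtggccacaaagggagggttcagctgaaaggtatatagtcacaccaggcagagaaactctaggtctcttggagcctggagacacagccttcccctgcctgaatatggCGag
Ctnna3: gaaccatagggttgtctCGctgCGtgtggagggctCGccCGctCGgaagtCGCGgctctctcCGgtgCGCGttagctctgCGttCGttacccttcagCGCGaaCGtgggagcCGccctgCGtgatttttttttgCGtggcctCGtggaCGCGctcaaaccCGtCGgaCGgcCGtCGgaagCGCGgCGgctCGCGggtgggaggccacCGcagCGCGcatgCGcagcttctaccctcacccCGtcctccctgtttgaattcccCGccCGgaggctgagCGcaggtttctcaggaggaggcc
Fcgbp: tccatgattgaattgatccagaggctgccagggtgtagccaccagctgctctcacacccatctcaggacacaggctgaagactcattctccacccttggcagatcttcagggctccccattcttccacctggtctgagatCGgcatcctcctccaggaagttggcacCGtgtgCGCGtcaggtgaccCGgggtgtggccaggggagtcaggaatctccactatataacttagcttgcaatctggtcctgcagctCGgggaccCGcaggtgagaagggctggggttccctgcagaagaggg
Myo9b: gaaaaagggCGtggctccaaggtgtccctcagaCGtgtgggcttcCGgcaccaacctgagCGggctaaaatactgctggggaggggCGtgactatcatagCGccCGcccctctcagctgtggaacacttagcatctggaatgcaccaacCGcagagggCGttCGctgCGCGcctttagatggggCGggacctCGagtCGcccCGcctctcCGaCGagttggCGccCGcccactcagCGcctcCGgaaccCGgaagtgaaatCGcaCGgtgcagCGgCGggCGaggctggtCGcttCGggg
The Mbd3l2 promoter holds 0 CG and that of Oog4 holds 3, while that of Ctnna3 holds 39 although this gene fell as well. Among the increases the Fcgbp promoter holds 7 and that of Myo9b holds 30. The observed over expected CpG ratio of these promoters is 0 for Mbd3l2, 0.188 for Oog4, 1.158 for Ctnna3, 0.274 for Fcgbp and 0.929 for Myo9b. Over all 32817 promoters in the RefSeq table, 94.6% hold at least 1 CG, the median is 7, and the ratio is under 0.2 in 28.7% and at least 0.8 in 20.9%.

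The share of genes called lower with H3.3K4M fell with the CpG content of the promoter, while the share called higher stayed between 8.29% and 10.6%. Of the genes tested, 9033 had a RefSeq promoter that starts within 500 bases of the gene start in the annotation; 11.8% of them were called lower and 9.19% higher. Lower calls made up 33.8% of the 634 genes with a ratio under 0.2, 28.5% of the 852 from 0.2 to 0.4, 16.6% of the 1106 from 0.4 to 0.6, 9.37% of the 2413 from 0.6 to 0.8 and 5.04% of the 4028 at 0.8 and over. In the same classes higher calls made up 9.46%, 9.74%, 10.6%, 9.78% and 8.29%. The median ratio was 0.488 for the genes called lower, 0.748 for those called higher and 0.794 for those not called. CpG-poor promoters went with low levels (a median of 1.53 CPM in the lowest class and 9.12 CPM in the highest), so the classes were also set out within 3 equal groups of genes by mean level. At the lowest levels 33.9% of the lowest class and 7.27% of the highest class were lower, at middle levels 37.7% and 5.28%, and at the highest levels 28.7% and 3.97%. In the protein-coding genes alone the shares of lower calls were 31.6% and 5.01%. Higher calls made up 6.49% of the lowest class and 4.12% of the highest class at the lowest levels. At middle levels they made up 10.1% and 8.09%, and at the highest levels 16.2% and 10.1%. Within each group by level, higher calls were thus also more frequent in the lowest class than in the highest. Without H3.3WT rep 1 the end classes held 24.8% and 2.55% of lower calls, and in the fit with MII oocytes 9.83% and 0.817%. The part of promoter CpG in the calls was not tested, since no methylation or histone data are used here.

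**Figure D2:**
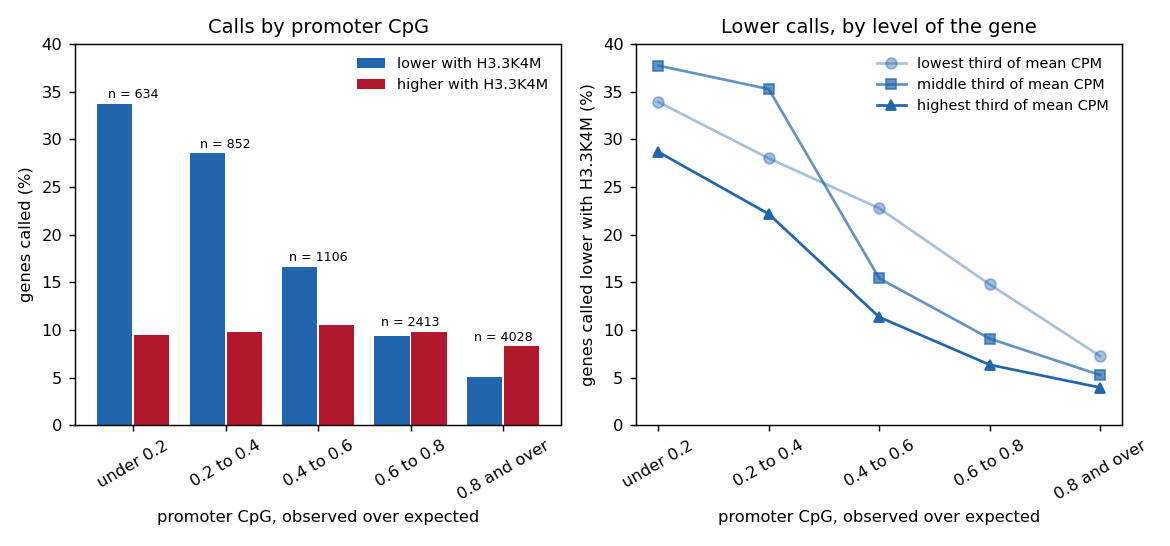
The left panel gives the percent of genes called lower (blue) and higher (red) with H3.3K4M in 5 classes of promoter CpG, observed over expected, with the number of genes; the right panel gives the percent called lower within 3 equal groups of genes by mean CPM. Lower calls range from 33.8% under 0.2 to 5.04% at 0.8 and over, higher calls stay between 8.29% and 10.6%, and each group by level shows the same order of its end classes.

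Calls also differed by the kind of gene. Long intergenic non-coding RNAs were called lower in 39.0% of the 779 tested (304 genes) and higher in 3.47%, unprocessed pseudogenes lower in 37.1% of 89, and protein-coding genes lower in 12.0% and higher in 9.45% of 12234. Exon length went with the calls as well: with genes in 3 equal groups by length, 11.1% of the shortest and 4.53% of the longest were called higher, and 16.9% of the shortest and 12.8% of the longest lower. In the highest CpG class higher calls made up 14.5% of the shortest and 3.75% of the longest, whereas lower calls made up 2.79% of the shortest and 6.68% of the longest. Whether transcript length, RNA quality or coverage along transcripts played a part was not tested.

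Some of the decreases lay in runs of neighbouring genes, and some of these runs hold oocyte gene families. Counting stretches of at least 5 tested genes in a row that were all called in 1 direction, 18 runs with 116 of the 2115 lower genes and 6 runs with 35 of the 1329 higher genes were found, and no test was made against chance. The run at chr4:143809245-144196934 (mm10) held Pramef25, Pramef17, Oog3 and Oog2 among 7 genes. Another at chr7:14659496-15759800 held Obox7, Obox2, Obox1 and Obox5 with the pseudogene Obox3-ps2, and another at chr7:26061497-26686437 held Nlrp9c, Nlrp4a and Nlrp9a between the cytochrome P450 genes Cyp2b13 and Cyp2b23. Zscan4c, Zscan4d and Zscan4f lay in a run of 7 at chr7:11005745-11519111, and Tcstv1 and Tcstv3 ended a run of 9 at chr13:119893388-120318178. Other runs held no oocyte family, such as that of Arsk, Ttc37 and Mctp1 or that of Hivep1 and Edn1, both on chromosome 13. Further runs held zinc-finger genes (Zfp973 with 8 predicted genes on chromosome 2; Zfp988, Zfp978, Zfp982, Zfp985, Zfp979 and Zfp534 on chromosome 4) and gasdermins (Gsdmc2, Gsdmc3, Gsdmcl2 and Gsdmc4 on chromosome 15). Many neighbours in these runs are near-identical copies, among which reads can be shared, so the calls in a run are not independent and the split between copies is uncertain. Runs of higher genes held other kinds of genes, such as Mapk3, Ppp4c, Ypel3 and Aldoa at chr7:126759601-126830219.

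The oogenesins and other PRAME-like genes, a leucine-rich-repeat family of germ cells, were lower almost throughout. Of 9 tested, 7 were called lower and none higher, with a median log2 fold change of -2.48 (8 of 17 members did not pass the filter on low counts). The share lower was 77.8%, against 13.7% over all genes. Beside Oog4, Oog2 had 54.7 and 44.4 CPM in H3.3K4M libraries and 338 and 328 CPM in H3.3WT libraries (-2.75 ± 0.18; edgeR adjusted p = 1.39e-06). Oog3 had 221 and 264 CPM with H3.3K4M against 844 and 694 CPM with H3.3WT (-1.66 ± 0.19). Pramef20 had 38.4 and 43.2 CPM in H3.3K4M oocytes against 203 and 253 CPM in H3.3WT oocytes (-2.48 ± 0.18). The groups lay well apart in each. In Oog1 they lay closer, with 855 and 593 CPM in H3.3K4M libraries and 1225 and 1182 CPM in H3.3WT libraries. The call of Oog1 was lost when H3.3WT rep 1 or H3.3WT rep 2 was left out (edgeR adjusted p = 0.129 and 0.0788). Pramef17, at 1.63 and 0.280 CPM with H3.3K4M against 5.80 and 6.80 CPM with H3.3WT, was lower. The call of Pramef25 was lost when H3.3WT rep 1 was left out (edgeR adjusted p = 0.0944).

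All 4 tested Obox homeobox genes, which encode transcription factors of the oocyte and early embryo, were called lower. Next to Obox7, Obox2 had 2314 and 1894 CPM in H3.3K4M oocytes against 4608 and 4770.0 CPM in H3.3WT oocytes (-1.16 ± 0.20). Obox5 had 1969 and 1563 CPM in H3.3K4M libraries and 3441 and 3769 CPM in H3.3WT libraries (-1.03 ± 0.20; edgeR adjusted p = 0.00288). These members were abundant in both groups. Obox1 had 2414 and 2058 CPM with H3.3K4M against 3693 and 4068 CPM with H3.3WT. Its call was lost when H3.3WT rep 1 or H3.3WT rep 2 was left out (edgeR adjusted p = 0.0878 and 0.148). Of the Nlrp genes of oocytes, relatives of inflammasome genes, 5 of 12 were lower and none higher (median -0.46). That is 41.7% lower, against 13.7% over all genes. Nlrp9c had 137 and 91.6 CPM in H3.3K4M oocytes against 562 and 522 CPM in H3.3WT oocytes (-2.25 ± 0.21; edgeR adjusted p = 1.43e-05). Nlrp9b had 69.9 and 67.7 CPM in H3.3K4M libraries and 269.6 and 157 CPM in H3.3WT libraries (-1.63 ± 0.23). For Nlrp9a the levels were 59.3 and 60.2 CPM with H3.3K4M against 142 and 97.4 CPM with H3.3WT, and for Nlrp4b the log2 fold change was -0.77 ± 0.16. These 4 were picked as called genes, so the order of their libraries adds nothing to the calls. Nlrp4a lost its call when H3.3K4M rep 1 or H3.3WT rep 1 was left out (edgeR adjusted p = 0.0894 and 0.148). Nlrp5, which embryos need for the first cleavages, had 856 and 852 CPM in H3.3K4M oocytes against 798 and 1025 CPM in H3.3WT oocytes, and the groups overlapped.

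Genes known for their burst of expression in mouse 2-cell embryos were measurable in these oocytes, and 7 of 12 tested were lower and none higher. The share lower was 58.3%, against 13.7% over all genes. Zscan4d had 0.245 and 0.0280 CPM in H3.3K4M libraries and 5.94 and 3.66 CPM in H3.3WT libraries (-5.30 ± 0.53; edgeR adjusted p = 2.09e-05), from 6 and 1 counts in H3.3K4M libraries and 215 and 112 counts in H3.3WT libraries. Zscan4f had 0 and 1 counts in H3.3K4M libraries against 30 and 15 counts in H3.3WT libraries. Zscan4c had 8 and 1 counts with H3.3K4M against 57 and 38 counts with H3.3WT. These 3 genes rest on few counts with H3.3K4M, and the order of the libraries adds nothing to their calls. Tcstv1 was the most abundant called member, with 26.1 and 27.8 CPM with H3.3K4M against 238 and 185 CPM with H3.3WT (-2.97 ± 0.19). Tcstv3 had 30.4 and 38.2 CPM in H3.3K4M oocytes against 119 and 96.6 CPM in H3.3WT oocytes (-1.65 ± 0.18). The calls of Pramef25 and of Usp17lb were lost without H3.3WT rep 1, with edgeR adjusted p = 0.0944 and 0.185. Of the list, 27 of 29 names are in the annotation and 12 passed the filter on low counts.

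**Figure D3:**
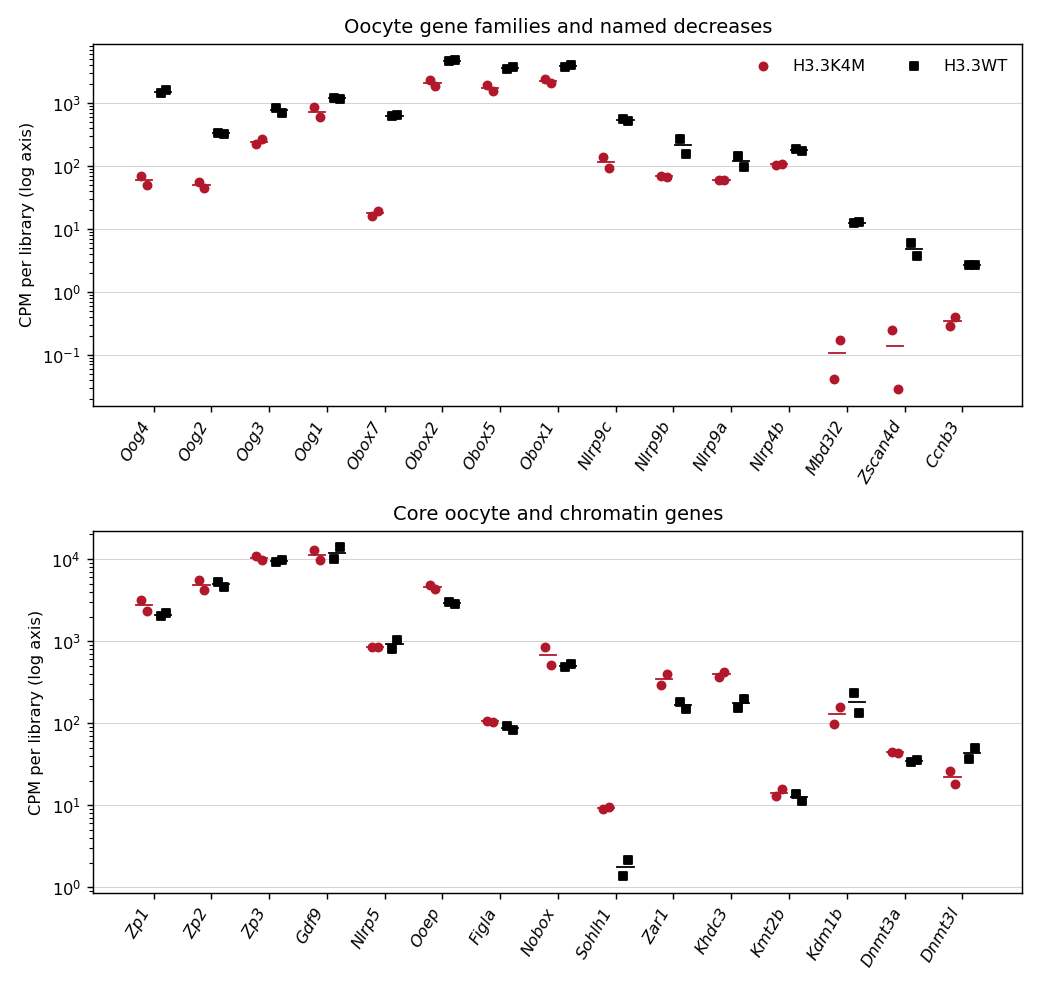
Each point is the level in 1 library in CPM on a log axis, H3.3K4M (red circles) left of H3.3WT (black squares), with a line at each mean of 2. In the upper panel H3.3K4M lies below H3.3WT for every gene, from Zscan4d at under 1 CPM to Obox2 at over 1000 CPM. In the lower panel most core oocyte and chromatin genes lie at like levels, with Sohlh1, Zar1, Khdc3 and Ooep higher and Dnmt3l lower.

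Most genes of the core programme of the growing oocyte were not called, which also held for all genes tested, of which 22.4% were called. Zp1, Zp2 and Zp3, which build the zona, were not called. Zp1 had 3156 and 2321 CPM in H3.3K4M libraries and 2009 and 2184 CPM in H3.3WT libraries (0.39 ± 0.21). Zp2 had 5547 and 4259 CPM with H3.3K4M against 5282 and 4631 CPM with H3.3WT (-0.02 ± 0.21). Gdf9 was not called either (-0.08 ± 0.24). Its relative Bmp15 had 431 and 469 CPM in H3.3K4M oocytes against 1052 and 731 CPM in H3.3WT oocytes (-0.99 ± 0.20). Its call was lost when H3.3WT rep 1 was left out (edgeR adjusted p = 0.108). Of the 19 genes for zona, secreted and surface proteins, 3 were lower (Bmp15, Oosp3 and Zp3r) and 2 higher (Gja4 and Fgf8). These shares, 15.8% and 10.5%, stood near the 13.7% and 8.64% of all genes. Each of these calls was lost when 1 library was left out. Oosp3 lost it when H3.3WT rep 2 was left out (edgeR adjusted p = 0.0643) and Zp3r when H3.3WT rep 1 was left out (edgeR adjusted p = 0.0505). Gja4 lost it when H3.3WT rep 1 was left out (edgeR adjusted p = 0.201) and Fgf8 when H3.3K4M rep 2 or H3.3WT rep 1 was left out (edgeR adjusted p = 0.0555 and 0.166). Among 17 genes of the subcortical maternal complex and other maternal-effect genes none was lower and 3 were higher. The share higher was 17.6%, against 8.64% over all genes. Khdc3, a member of that complex, had 368 and 422 CPM in H3.3K4M libraries and 151 and 198 CPM in H3.3WT libraries (1.18 ± 0.19; edgeR adjusted p = 0.000722). Zar1, an RNA-binding maternal-effect gene, had 289 and 395 CPM with H3.3K4M against 181 and 149 CPM with H3.3WT (1.06 ± 0.20). Ooep, also of the subcortical maternal complex, had 4780.4 and 4383 CPM in H3.3K4M oocytes against 2977 and 2853 CPM in H3.3WT oocytes. Its call was lost when H3.3WT rep 1 or H3.3WT rep 2 was left out (edgeR adjusted p = 0.299 and 0.225).

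Of the 11 transcription factors of oocytes tested, 2 were higher and 1 lower, and the call of Sohlh1 held without any 1 library. These shares were 18.2% and 9.09%, against 8.64% and 13.7% over all genes. Sohlh1, a helix-loop-helix factor that acts in early follicles, had 8.98 and 9.50 CPM in H3.3K4M libraries and 1.35 and 2.16 CPM in H3.3WT libraries (2.41 ± 0.26; edgeR adjusted p = 3.86e-05). Its partner Sohlh2 had 0.816 and 1.04 CPM with H3.3K4M against 1.44 and 1.24 CPM with H3.3WT and was not called. Lhx8 was higher, with 109 and 84.1 CPM in H3.3K4M oocytes against 60.2 and 63.0 CPM in H3.3WT oocytes. That call was lost when H3.3K4M rep 1 or H3.3WT rep 1 was left out (edgeR adjusted p = 0.127 and 0.119). Gtf2a1l, the only member lower, lost its call when H3.3K4M rep 2 or H3.3WT rep 2 was left out (edgeR adjusted p = 0.116 and 0.206). Figla had 107 and 104 CPM in H3.3K4M libraries and 92.6 and 83.8 CPM in H3.3WT libraries and was not called. Nobox had 844 and 511 CPM with H3.3K4M against 479.6 and 524 CPM with H3.3WT and was not called either, nor was Tbpl2, the TBP paralogue used by oocytes (0.36 ± 0.21). The oocyte linker histone H1foo had 7906 and 7509 CPM in H3.3K4M oocytes against 6733 and 8194 CPM in H3.3WT oocytes, with overlapping groups.

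The histone genes and enzymes closest to the change at lysine 4 were mostly not called. H3f3a, which encodes H3.3, had 404 and 317 CPM in H3.3K4M libraries and 271 and 292 CPM in H3.3WT libraries (0.36 ± 0.18). H3f3b, the other H3.3 gene, had 1708 and 1358 CPM with H3.3K4M against 1287 and 1484 CPM with H3.3WT (0.15 ± 0.20), and neither was called. Counts per gene cannot show the changed codon or separate the transgene from these genes, so the labels were not checked by the transgene itself. Among 14 H3.3 genes and chaperones, Atrx was lower, with 71.5 and 59.7 CPM in H3.3K4M oocytes against 109.6 and 102 CPM in H3.3WT oocytes. It lost its call when H3.3WT rep 1 was left out (edgeR adjusted p = 0.0676). Of 22 H3K4 methyltransferases and partners none was lower. Kmt2b had 12.9 and 15.7 CPM in H3.3K4M libraries and 13.9 and 11.3 CPM in H3.3WT libraries (0.18 ± 0.20) and was not called. Cxxc1, the CpG-binding subunit of the Setd1 complexes, had 7.10 and 9.14 CPM with H3.3K4M against 5.80 and 4.90 CPM with H3.3WT and was not called. Smyd2 rose, with 6.28 and 6.53 CPM in H3.3K4M oocytes against 2.60 and 3.24 CPM in H3.3WT oocytes (1.14 ± 0.23; edgeR adjusted p = 0.00325). The call of Pagr1a was lost when H3.3K4M rep 2, H3.3WT rep 1 or H3.3WT rep 2 was left out (edgeR adjusted p = 0.0725, 0.182 and 0.109). None of 7 H3K4 demethylase genes was called by edgeR (1 at an unadjusted p under 0.05, 0 by DESeq2). Kdm1b, which oocytes need to set DNA methylation at imprinted genes, had 98.1 and 159 CPM in H3.3K4M libraries and 234 and 133 CPM in H3.3WT libraries. Kdm5b, the member with the unadjusted p under 0.05, had 3.26 and 3.67 CPM with H3.3K4M against 1.82 and 2.39 CPM with H3.3WT (edgeR adjusted p = 0.0592). Among 22 readers of H3K4 methylation, Ing4 was called higher, and its call was lost when H3.3K4M rep 2, H3.3WT rep 1 or H3.3WT rep 2 was left out (edgeR adjusted p = 0.0954, 0.269 and 0.0832).

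In the DNA methylation machinery, Dnmt3l fell. This cofactor of the de novo methyltransferases, which reads unmethylated H3K4, had 25.8 and 18.4 CPM in H3.3K4M oocytes against 37.0 and 49.3 CPM in H3.3WT oocytes (-0.97 ± 0.21; edgeR adjusted p = 0.00505). The catalytic partner Dnmt3a had 44.6 and 43.6 CPM in H3.3K4M libraries and 33.4 and 35.9 CPM in H3.3WT libraries (0.35 ± 0.16) and was not called. Of 17 members tested 1 other was called: Mbd3, higher, with its call lost when H3.3K4M rep 2, H3.3WT rep 1 or H3.3WT rep 2 was left out (edgeR adjusted p = 0.303, 0.078 and 0.129). Among 33 Polycomb genes 4 were lower (12.1%, against 13.7% over all genes) and 3 higher (9.09%, against 8.64%), so the list stood near the share of all genes. In it 1 call, that of Phf19 (2 and 0 counts with H3.3K4M against 35 and 21 counts with H3.3WT), held without any 1 library. The other lower calls were those of the H3K27 methyltransferase subunits, with log2 fold changes of Ezh2 -0.59 ± 0.19, Eed -0.53 ± 0.17 and Suz12 -0.75 ± 0.24. They lost their calls without H3.3WT rep 1 (edgeR adjusted p = 0.448, 0.118 and 0.389), and each also without 1 or 2 other libraries. Ring1 lost its call when H3.3K4M rep 2 or H3.3WT rep 1 was left out (edgeR adjusted p = 0.112 and 0.196). Cbx8 lost it when H3.3WT rep 1 was left out (edgeR adjusted p = 0.084) and Bap1 when H3.3K4M rep 2, H3.3WT rep 1 or H3.3WT rep 2 was left out (edgeR adjusted p = 0.129, 0.118 and 0.193). Of 34 genes that silence retroelements, Mael, of the piRNA pathway, rose, with 86.1 and 59.5 CPM with H3.3K4M against 39.6 and 35.7 CPM with H3.3WT (0.95 ± 0.19). The small-RNA effector Ago2 fell, with 11.5 and 12.6 CPM in H3.3K4M oocytes against 27.5 and 28.5 CPM in H3.3WT oocytes (-1.21 ± 0.17). The PIWI gene Piwil1 had 0 and 1 counts with H3.3K4M against 31 and 15 counts with H3.3WT, and was called lower. Gtsf1, a PIWI cofactor, was lower, with its call lost when H3.3WT rep 1 or H3.3WT rep 2 was left out (edgeR adjusted p = 0.104 and 0.423).

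Meiotic prophase genes, whose work lies before oocyte growth, were lower in 7 of 26 and higher in 2 of 26 tested. These shares were 26.9% and 7.69%, against 13.7% and 8.64% over all genes. Hormad1, of the unsynapsed chromosome axis, had 2.29 and 3.67 CPM in H3.3K4M libraries and 9.20 and 9.90 CPM in H3.3WT libraries (-1.66 ± 0.25; edgeR adjusted p = 0.000458). Hormad2 had 1.31 and 1.26 CPM with H3.3K4M against 2.84 and 3.50 CPM with H3.3WT. The recombination gene Tex11 had 0.490 and 0.673 CPM in H3.3K4M oocytes against 2.82 and 1.93 CPM in H3.3WT oocytes. As these 3 were picked as called genes, the order of their libraries adds nothing to the calls. Tex15 went up, with 24.5 and 35.3 CPM in H3.3K4M libraries and 17.5 and 14.8 CPM in H3.3WT libraries (0.89 ± 0.20). Sycp2, Sycp3, Mei4, Smc1b and Syce2 lost their calls without 1 library or more, with edgeR adjusted p of up to 0.349, 0.352, 0.133, 0.0639 and 0.434; leaving out H3.3WT rep 1 ended 4 of these calls and leaving out H3.3K4M rep 1 ended that of Smc1b. In the list of meiotic arrest and exit, 3 of 29 were higher and 3 lower (10.3% each), shares near those of all genes. Cyclin B3, Ccnb3, which drives exit from the first division, had 0.286 and 0.392 CPM with H3.3K4M against 2.71 and 2.68 CPM with H3.3WT (-2.94 ± 0.34; edgeR adjusted p = 6.49e-05). The phosphatase Cdc25b had 4.82 and 6.95 CPM in H3.3K4M oocytes against 14.5 and 10.5 CPM in H3.3WT oocytes (-1.08 ± 0.24). The kinase of oocytes Aurkc had 260.5 and 254 CPM in H3.3K4M libraries and 121 and 145 CPM in H3.3WT libraries (0.95 ± 0.17). Fzr1, which activates the anaphase-promoting complex, had 30.4 and 42.2 CPM with H3.3K4M against 21.1 and 18.8 CPM with H3.3WT. Mos, the kinase of the arrest in metaphase II, had 1708 and 1374 CPM in H3.3K4M oocytes against 741 and 958 CPM in H3.3WT oocytes. Its call was lost when H3.3WT rep 1 was left out (edgeR adjusted p = 0.222). Mastl lost its call whichever library was left out (edgeR adjusted p up to 0.2).

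Of 29 genes of maternal mRNA storage and decay, Zar1 and Ybx2 were higher and Cpeb4, Btg4, Pan3 and Igf2bp3 lower, shares (6.90% and 13.8%) near those of all genes. All but Zar1 lost their calls when 1 library was left out. Ybx2 did so when H3.3K4M rep 2 or H3.3WT rep 2 was left out (edgeR adjusted p = 0.234 and 0.104) and Cpeb4 when H3.3WT rep 1 was left out (edgeR adjusted p = 0.228). Btg4, an adaptor of the deadenylase, did so when H3.3WT rep 1 or H3.3WT rep 2 was left out (edgeR adjusted p = 0.0706 and 0.207). Pan3 and Igf2bp3 each did so when H3.3K4M rep 1, H3.3WT rep 1 or H3.3WT rep 2 was left out (edgeR adjusted p up to 0.371 and 0.281). Germline genes were higher in 4 and lower in 3 of 19 (21.1% and 15.8%, against 8.64% and 13.7% over all genes). The mouse Tex19 pair, of which Tex19.1 restrains retroelements in germ cells, rose. Tex19.2 had 49.4 and 22.8 CPM in H3.3K4M libraries and 4.83 and 7.16 CPM in H3.3WT libraries (2.59 ± 0.35; edgeR adjusted p = 0.00075). Tex19.1 had 156 and 93.6 CPM with H3.3K4M against 39.2 and 65.9 CPM with H3.3WT (1.25 ± 0.27). They are neighbours in a run of 5 higher genes on chromosome 11 (121029402 to 121204711). Prdm1, which starts the germ cell fate in the embryo, had 0.122 and 0.280 CPM in H3.3K4M oocytes against 2.18 and 2.09 CPM in H3.3WT oocytes (-3.30 ± 0.41; edgeR adjusted p = 0.00011). Tfap2c lost its call when H3.3K4M rep 1, H3.3WT rep 1 or H3.3WT rep 2 was left out (edgeR adjusted p = 0.0891, 0.109 and 0.0931), and Dnd1 when H3.3K4M rep 1, H3.3K4M rep 2, H3.3WT rep 1 or H3.3WT rep 2 was left out (edgeR adjusted p = 0.0589, 0.107, 0.251 and 0.0701).

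Imprinted genes, many of which take maternal DNA methylation during oocyte growth, were called in both directions, 4 higher and 5 lower of 28 tested (20 of 48 had too few counts). These shares were 14.3% and 17.9%, against 8.64% and 13.7% over all genes. Zrsr1 had 3.31 and 2.69 CPM in H3.3K4M libraries and 0.497 and 0.621 CPM in H3.3WT libraries (2.42 ± 0.31; edgeR adjusted p = 0.000158). Kcnq1, a potassium channel gene, had 9.87 and 14.4 CPM with H3.3K4M against 6.16 and 5.52 CPM with H3.3WT (1.06 ± 0.23). The growth inhibitor Grb10 had 9.83 and 11.2 CPM in H3.3K4M oocytes against 5.61 and 5.62 CPM in H3.3WT oocytes (0.91 ± 0.20). Jade1, at 58 and 30 counts with H3.3K4M against 3 and 2 counts with H3.3WT, was called higher as well. Among the decreases Usp29 had 6.04 and 4.57 CPM in H3.3K4M libraries and 13.2 and 10.1 CPM in H3.3WT libraries (-1.14 ± 0.23). Plagl1 lost its call when H3.3WT rep 1 was left out (edgeR adjusted p = 0.35) and Meg3 when H3.3WT rep 1 was left out (edgeR adjusted p = 0.0503). Zim1 lost it when H3.3K4M rep 1, H3.3K4M rep 2 or H3.3WT rep 1 was left out (edgeR adjusted p = 0.0563, 0.0514 and 0.386). Sgce lost it when H3.3K4M rep 2 or H3.3WT rep 2 was left out (edgeR adjusted p = 0.131 and 0.148). Total levels do not show from which allele a transcript came.

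Genes that answer signals and stress moved in several lists, more of them up. Of 24 immediate-early genes, the first to respond to a signal, 5 were higher and none lower (median 0.44). That is 20.8% higher, against 8.64% higher and 13.7% lower over all genes. Dusp1, a phosphatase of MAP kinases, had 37.7 and 30.9 CPM with H3.3K4M against 10.5 and 11.7 CPM with H3.3WT (1.63 ± 0.18; edgeR adjusted p = 5.49e-05). Ier2 had 4.37 and 6.11 CPM in H3.3K4M oocytes against 0.856 and 0.948 CPM in H3.3WT oocytes. The AP-1 subunit Fos had 1.92 and 1.32 CPM in H3.3K4M libraries and 0.525 and 0.588 CPM in H3.3WT libraries. Dusp2 had 21.5 and 18.9 CPM with H3.3K4M against 9.89 and 11.3 CPM with H3.3WT. Ier3 lost its call when H3.3K4M rep 2, H3.3WT rep 1 or H3.3WT rep 2 was left out (edgeR adjusted p = 0.0889, 0.142 and 0.0542). Of 23 heat shock and unfolded-protein response genes 7 were higher and none lower (median 0.20). That is 30.4% higher, against 8.64% over all genes. The transcription factor Atf4 had 142 and 125 CPM in H3.3K4M oocytes against 68.0 and 74.7 CPM in H3.3WT oocytes (0.91 ± 0.16; edgeR adjusted p = 0.00166). Its target Chac1 had 11.5 and 10.9 CPM in H3.3K4M libraries and 4.81 and 5.16 CPM in H3.3WT libraries (1.17 ± 0.20). Xbp1, a factor of the unfolded-protein response, had 8.69 and 6.95 CPM with H3.3K4M against 2.46 and 2.94 CPM with H3.3WT (1.53 ± 0.23). Sdf2l1, of the endoplasmic reticulum, had 12.4 and 15.4 CPM in H3.3K4M oocytes against 6.74 and 6.90 CPM in H3.3WT oocytes. Heat shock genes lost their calls. Hsp90ab1 did so when H3.3WT rep 1 was left out (edgeR adjusted p = 0.115) and Dnajb1 when H3.3WT rep 1 or H3.3WT rep 2 was left out (edgeR adjusted p = 0.0945 and 0.17). Hspa1a did so when H3.3K4M rep 1, H3.3WT rep 1 or H3.3WT rep 2 was left out (edgeR adjusted p = 0.305, 0.137 and 0.128).

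Antioxidant and ferritin genes split. Of 24, 5 were higher and 3 lower (20.8% and 12.5%, against 8.64% and 13.7% over all genes). Gpx1, which reduces peroxides, had 148 and 138 CPM in H3.3K4M libraries and 49.5 and 43.9 CPM in H3.3WT libraries (1.61 ± 0.16; edgeR adjusted p = 2.64e-05). The ferritin light chain Ftl1 had 299 and 245 CPM with H3.3K4M against 69.3 and 86.5 CPM with H3.3WT (1.80 ± 0.19). The glutathione transferase Gsta4 had 412 and 394 CPM in H3.3K4M oocytes against 151 and 154 CPM in H3.3WT oocytes (1.40 ± 0.17). Haem oxygenase Hmox1, which breaks down haem, had 6.53 and 4.48 CPM in H3.3K4M libraries and 1.55 and 1.41 CPM in H3.3WT libraries. The decreases held Nfe2l2, which encodes the transcription factor of the antioxidant response, with 0.775 and 0.224 CPM with H3.3K4M against 2.46 and 2.94 CPM with H3.3WT (-2.53 ± 0.43; edgeR adjusted p = 0.00113). Nqo1 fell too, with 2.04 and 2.998 CPM in H3.3K4M oocytes against 7.73 and 8.20 CPM in H3.3WT oocytes (-1.64 ± 0.24). The call of Fth1 was lost when H3.3K4M rep 1, H3.3WT rep 1 or H3.3WT rep 2 was left out (edgeR adjusted p = 0.153, 0.182 and 0.0702). That of Slc7a11 was lost when H3.3K4M rep 1 or H3.3WT rep 1 was left out (edgeR adjusted p = 0.0699 and 0.139). Ferritin genes have many retrocopies, so their levels are uncertain. Of 25 p53 targets and apoptosis genes Aen was higher (0.80 ± 0.17) and Trp63, the p53 relative that guards oocytes, lower, with 3.63 and 3.17 CPM in H3.3K4M libraries and 8.15 and 6.83 CPM in H3.3WT libraries (-1.15 ± 0.22). None of 12 interferon-stimulated genes tested was called by edgeR (2 at an unadjusted p under 0.05, 0 by DESeq2).

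Housekeeping lists stayed near 0. Among 79 cytosolic ribosomal protein genes 6 were higher and none lower (median 0.06). The 7.59% higher stood near the 8.64% over all genes. Rps23, at 172 and 139 CPM with H3.3K4M against 67.3 and 65.4 CPM with H3.3WT, kept its call without any 1 library, and Rps2, Rpl27a, Rpl10, Rpl3 and Rps20 did not (edgeR adjusted p up to 0.0592, 0.191, 0.253, 0.205 and 0.205). Of 76 nuclear genes for oxidative phosphorylation 3 were higher and 1 lower (median 0.10), with Cyc1 of complex III at 21.7 and 19.4 CPM in H3.3K4M oocytes against 9.28 and 10.4 CPM in H3.3WT oocytes; Ndufa9, Ndufv1 and Uqcr10 lost their calls (edgeR adjusted p up to 0.11, 0.304 and 0.141). Of 48 genes for RNA polymerase II and general transcription factors 2 were higher (Ercc2 and Gtf2f1) and 1 lower (Polr2g), and none of the 3 calls held without each library (edgeR adjusted p up to 0.353, 0.129 and 0.323). Of 30 genes of oocyte growth signalling Tsc2 was higher and Rptor and Eif4ebp1 lower, all with calls that were lost (up to 0.263, 0.23 and 0.203), and 1 of 5 linker histones, H1f0, was higher with a call that was lost (up to 0.21). Leaving out H3.3WT rep 1 ended each of the calls lost in these lists except that of Gtf2f1, which ended without H3.3WT rep 2.

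Transcripts of the mitochondrial genome lay lower with H3.3K4M. All 15 tested had a log2 fold change under 0, 7 were called lower, and the median was -0.59. The share called lower was 46.7%, against 13.7% over all genes. The small ribosomal RNA mt-Rnr1 had 239.7 and 169 CPM in H3.3K4M libraries and 484 and 499 CPM in H3.3WT libraries (-1.27 ± 0.20; edgeR adjusted p = 0.000599). It was the only member to hold its call without any 1 library: the others, mt-Co1, mt-Co2, mt-Co3, mt-Nd2, mt-Nd4 and mt-Nd6, lost it without H3.3WT rep 1 (edgeR adjusted p between 0.0968 and 0.606). As a share of all gene counts, these transcripts took 1.04% and 0.94% in H3.3K4M libraries against 1.56% and 1.38% in H3.3WT libraries. With 2 libraries against 2 an exact permutation test cannot go below p = 0.333, the value found here (two-sided). Nuclear ribosomal RNA took 0.197% and 0.140% of gene counts in H3.3K4M libraries against 0.287% and 0.263% in H3.3WT libraries, and its part in the result was not tested.

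**Figure D4:**
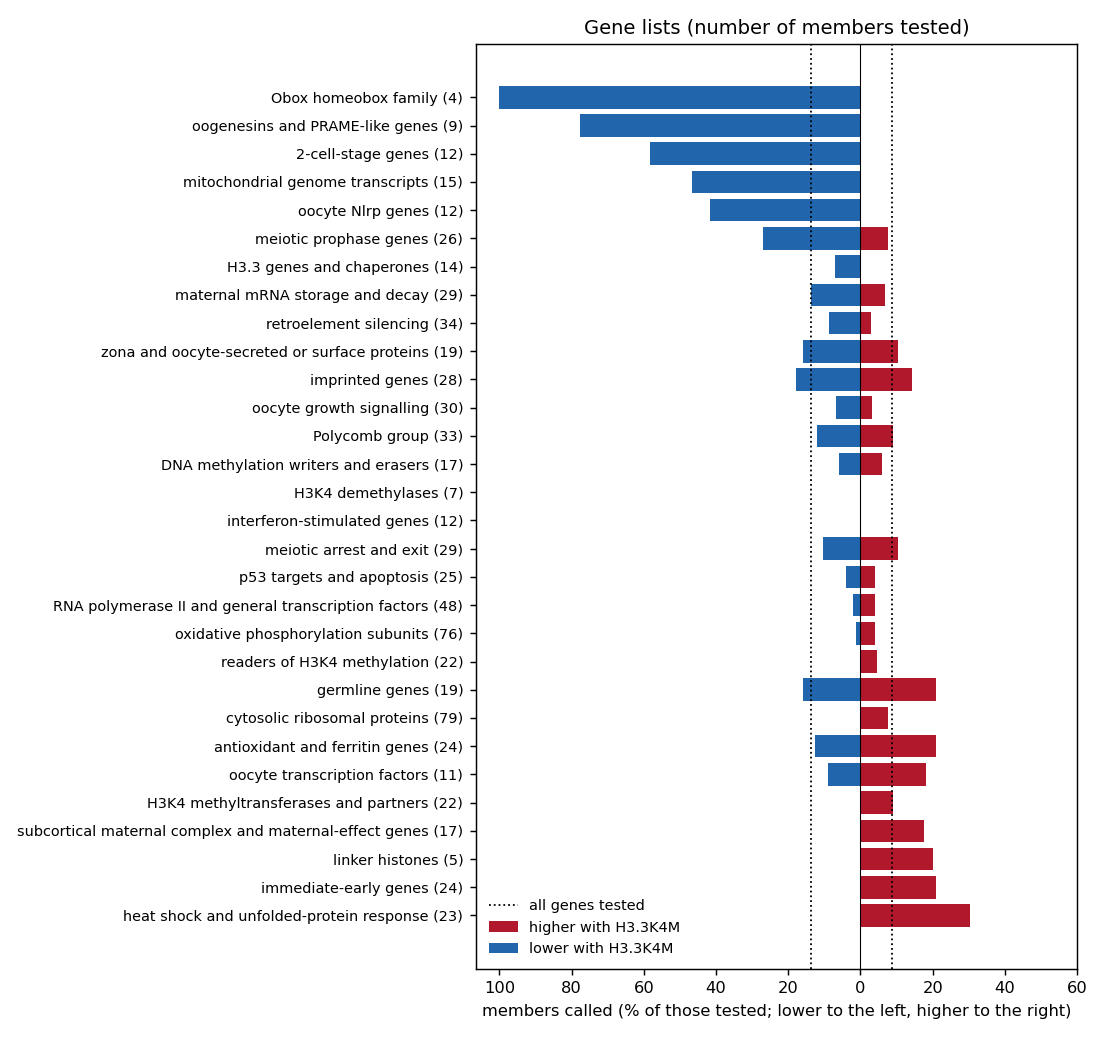
Bars give the percent of tested members called lower (blue, left) and higher (red, right) with H3.3K4M in each gene list, with the number of members tested in brackets; dotted lines mark the percent over all genes tested, 13.7% lower and 8.64% higher. The Obox, oogenesin, 2-cell-stage, mitochondrial and Nlrp lists reach past the left line with no member higher, and the heat shock and immediate-early lists reach past the right line with no member lower.

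Families were also grouped by the stem of the gene symbol, a grouping made after the values were seen. Of the tubulin genes, 7 of 9 beta-tubulin genes and pseudogenes and 4 of 6 alpha-tubulin genes were higher and none lower, and 8 of these 11 calls were lost when 1 library was left out. Tubb4b, the most abundant, had 2359 and 1826 CPM with H3.3K4M against 978 and 1319.6 CPM with H3.3WT (0.86 ± 0.22). Tuba1c had 1242 and 854 CPM in H3.3K4M oocytes against 562 and 590.3 CPM in H3.3WT oocytes. Tubb6 had 697 and 578 CPM in H3.3K4M libraries and 308 and 376 CPM in H3.3WT libraries. Calls of Tubb2b, Tuba1a and the pseudogene Tubb4b-ps1 held without any 1 library. Those of Tubb4b, Tuba1c and Tubb6 were lost, with edgeR adjusted p of up to 0.263, 0.0896 and 0.102, and so were those of Tuba1b, Tuba4a, Tubb2a, Tubb3 and Tubb5 (up to 0.0706, 0.302, 0.464, 0.18 and 0.289). In Tubb4b, Tuba1c and Tubb6 H3.3K4M rep 1 lay above H3.3K4M rep 2. Tubulin copies share reads with each other and with pseudogenes. Tubal3, which encodes a tubulin-like protein, went the other way, with 0.571 and 0.673 CPM with H3.3K4M against 5.88 and 9.12 CPM with H3.3WT (-3.57 ± 0.31). Of 8 augmin genes 5 were higher, with Haus8 at 82.4 and 77.9 CPM in H3.3K4M oocytes against 34.9 and 43.1 CPM in H3.3WT oocytes (1.04 ± 0.17) next to Haus1. The calls of Haus4, Haus5 and Haus7 were lost with 1 library left out (edgeR adjusted p up to 0.0525, 0.232 and 0.228). Ifitm6 had 544 and 376 CPM in H3.3K4M libraries and 138 and 139 CPM in H3.3WT libraries (1.73 ± 0.20; edgeR adjusted p = 6.82e-05). Ifitm3, of the same family of membrane proteins, which is known for restricting virus entry, had 47.7 and 38.1 CPM with H3.3K4M against 13.8 and 12.9 CPM with H3.3WT. Among the decreases, 10 of 15 vomeronasal receptor genes (Vmn), 16 of 45 olfactory receptor genes (Olfr), 4 of 7 Serpinb genes and 7 of 13 axonemal dynein genes (Dnah) were lower, nearly all at a few CPM or less. In the Olfr family 1 gene was higher. These counts stand beside 13.7% lower over all genes tested. In the lowest of the 3 equal groups by mean CPM, 1025 of 5129 genes were lower and 260 higher. Vmn2r25 had 0.490 and 0.757 CPM in H3.3K4M oocytes against 4.36 and 4.74 CPM in H3.3WT oocytes (-2.82 ± 0.30). Serpinb12 had 1.59 and 2.19 CPM in H3.3K4M libraries and 20.4 and 22.1 CPM in H3.3WT libraries (-3.47 ± 0.23). Dnah5 had 0.122 and 0.140 CPM with H3.3K4M against 2.07 and 1.60 CPM with H3.3WT (-3.76 ± 0.44). The large Zfp family stood at the share of all genes, with 43 of 316 lower (13.6%).

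Far more repeat subfamilies were called lower than higher beside genes, while the repeats that dominate oocyte RNA were not called lower. Of 791 subfamilies tested, 256 (32.4%) were called, 231 (29.2%) lower and 25 (3.16%) higher. The median over all subfamilies was -0.45 on the log2 scale. When library sizes were taken from repeats only, which sets the median near 0 (-0.02), 98 were higher and 94 lower of 787, so the direction of most subfamilies holds relative to genes and not relative to other repeats. Without H3.3WT rep 1 the count was 128, and without H3.3WT rep 2 it was 159. As a share of all counts, repeats took 33.1% and 33.1% in H3.3K4M libraries against 30.1% and 31.9% in H3.3WT libraries, a difference of 2.09 percentage points (exact permutation p = 0.333, two-sided, the smallest possible). Most of that share was 1 subfamily: MTA_Mm-int, the internal part of the oocyte LTR element MTA, took 22.9% and 21.7% of all counts in H3.3K4M libraries against 19.004% and 21.8% in H3.3WT libraries, and the groups overlapped. RLTR10-int took 1.65% and 1.88% with H3.3K4M against 1.36% and 1.11% with H3.3WT. All repeats other than MTA and RLTR10 took 2.23% and 2.52% with H3.3K4M against 2.88% and 2.52% with H3.3WT.

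Within LTR elements, the ORR1 group of the ERVL-MaLR family was lower in 17 of 29 subfamilies, with none higher. Its internal part ORR1A0-int had 15.9 and 12.2 CPM in H3.3K4M oocytes against 50.4 and 57.8 CPM in H3.3WT oocytes (-1.95 ± 0.19; edgeR adjusted p = 3.24e-05). The LTR ORR1A0 had 14.9 and 12.4 CPM in H3.3K4M libraries and 27.2 and 30.1 CPM in H3.3WT libraries (-1.07 ± 0.18). In the MT group of the same family 5 of 20 were lower (25%, near the 29.2% over all subfamilies) and 1 higher. MTA_Mm had 66952 and 61732 CPM with H3.3K4M against 61210.4 and 63336 CPM with H3.3WT and was not called. MTB_Mm had 56.1 and 55.2 CPM in H3.3K4M oocytes against 91.3 and 99.8 CPM in H3.3WT oocytes (-0.78 ± 0.16; edgeR adjusted p = 0.00352). ERVL subfamilies were lower in 26 of 73 (35.6%, against 29.2% over all subfamilies). MERVL-int, the internal part of the element that is active at the 2-cell stage, had 12.4 and 10.4 CPM in H3.3K4M libraries and 24.6 and 22.6 CPM in H3.3WT libraries (-1.06 ± 0.18; edgeR adjusted p = 0.00159). Its LTR MT2_Mm had 239 and 160.2 CPM with H3.3K4M against 309 and 296 CPM with H3.3WT. The call of MT2_Mm was lost when H3.3K4M rep 2, H3.3WT rep 1 or H3.3WT rep 2 was left out (edgeR adjusted p = 0.178, 0.141 and 0.093). In both MERVL parts each H3.3K4M library lay below each H3.3WT library, an order that adds nothing to their calls. In ERVK 72 of 240 were lower, near the 29.2% over all subfamilies. The largest decreases with at least 10 CPM were those of IAPEY5_LTR, RMER13A2 (-2.13), LTRIS2, RLTR45 (-1.92) and, among LINEs, L1MB5 (-1.86). IAPEY5_LTR had 1.14 and 1.18 CPM in H3.3K4M oocytes against 8.59 and 11.9 CPM in H3.3WT oocytes (-3.13 ± 0.26). LTRIS2 had 9.67 and 11.3 CPM in H3.3K4M libraries and 41.3 and 41.4 CPM in H3.3WT libraries (-1.98 ± 0.17). IAPEz-int, the internal part of the intact IAP elements, had 2768 and 2137 CPM with H3.3K4M against 2923 and 2151 CPM with H3.3WT and was not called.

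The young L1Md subfamilies of LINE-1 were lower in 4 of 6. L1Md_A had 37.9 and 35.0 CPM in H3.3K4M oocytes against 56.6 and 56.5 CPM in H3.3WT oocytes (-0.63 ± 0.16). L1Md_T had 28.0 and 28.9 CPM in H3.3K4M libraries and 47.9 and 41.0 CPM in H3.3WT libraries (-0.64 ± 0.16). The call of L1Md_A was lost when H3.3WT rep 1 or H3.3WT rep 2 was left out (edgeR adjusted p = 0.0536 and 0.0615). That of L1Md_T was lost when H3.3K4M rep 1 or H3.3WT rep 1 was left out (edgeR adjusted p = 0.0617 and 0.132). Both were also lost with sizes from repeats only. The other called members, L1Md_F and L1Md_F2, lost their calls too (edgeR adjusted p up to 0.0914 and 0.358), so none of the 4 calls held without each library. Over all L1 subfamilies 46 of 115 were lower (40%, against 29.2% over all subfamilies) and 1, Lx2A1 (1.09 ± 0.18), higher. Of 33 SINE subfamilies 4 were lower (12.1%, under that share) and 2 higher. The abundant B1_Mm had 184 and 193 CPM with H3.3K4M against 187 and 186 CPM with H3.3WT. The increase with the largest fold was that of MURVY-int, an ERV1 element with many copies on the mouse Y chromosome, with 52.8 and 52.0 CPM in H3.3K4M oocytes against 2.26 and 5.98 CPM in H3.3WT oocytes (3.68 ± 0.37; edgeR adjusted p = 0.000233). Its H3.3WT libraries lay over 2-fold apart, and both lay far below the H3.3K4M libraries. The other increases named by the rule were LTR16E1 (1.73), MuRRS4-int (1.25), MER44D (1.03) and RLTR12D (0.95). Reads that fit several copies, and reads from genes that hold a repeat, can add to these levels, and how they were counted is not stated.

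**Figure D5:**
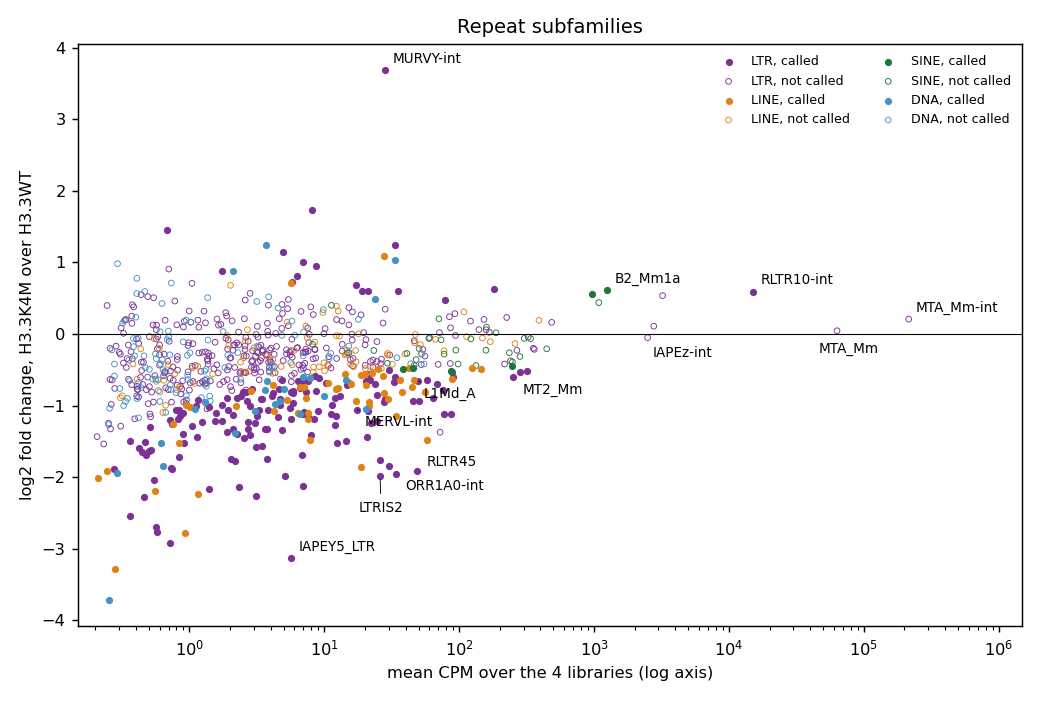
Each point is 1 repeat subfamily of 4 classes (LTR, LINE, SINE, DNA), with the mean level of the 4 libraries in CPM on a log axis and the log2 fold change, H3.3K4M over H3.3WT, on the vertical axis; filled points are called. Most filled points lie below 0 at under 100 CPM, while the most abundant elements MTA_Mm-int and MTA_Mm lie near 0 and RLTR10-int at 0.59.

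The genes called lower in growing oocytes were set beside later stages of the same series, as a description with no test, in CPM of gene counts alone, where batch and stage cannot be told apart. Of the 2115 genes called lower, 71.0% had at least 1 CPM in both MII oocyte libraries from 8-week females, 82.6% in both vehicle (DMSO) 2-cell libraries and 39.0% in both vehicle 4-cell libraries. The MII oocytes and these embryos have the genotype label WT, and the embryos came from females of 6 to 8 weeks. For the 1329 genes called higher these shares were 51.0%, 72.2% and 59.9%, and for the 11942 not called they were 62.9%, 77.5% and 67.6%. In all 3 sets of genes the share was highest at 2 cells. Mbd3l2, at 18.7 and 18.6 CPM in H3.3WT growing oocytes, had 293.9 and 318.7 CPM in MII oocytes, 483.5 and 508.8 CPM at 2 cells and 122.2 and 201.4 CPM at 4 cells. Nlrp9c had 858.4 and 756.3 CPM in H3.3WT growing oocytes, 2554 and 3787 CPM in MII oocytes and 31.9 and 38.8 CPM at 4 cells. Fcgbp, which was higher with H3.3K4M, had 53.1 and 62.6 CPM in H3.3WT growing oocytes and 4.24 and 4.87 CPM in MII oocytes. Ckb, likewise higher, had 128.7 and 127.8 CPM in H3.3WT growing oocytes and 0.856 and 0.674 CPM in MII oocytes.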

How the data were processed

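Growing oocytes were measured by Smart-seq2 RNA sequencing. The authors deposited 1 table of raw read counts per library, not normalized; reads were processed with tools that include STAR and cutadapt 1.16, on mm10, per the submitters' processing notes. Not given in the sources used here are the counter, its gene models, and how it used strand or treated reads that map more than once, so near-identical copies, overlapping or antisense genes and repeats within genes are uncertain. Symbols and positions come from GENCODE annotation of that build, promoters from RefSeq.

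Groups came from the labels. Computed here, in R 4.3.3 with edgeR 4.0.16 and limma 3.58.1: filterByExpr (minimum count 10, minimum total 15), TMM over genes and repeats of the 4 libraries, robust dispersions, the quasi-likelihood F-test, and Benjamini-Hochberg adjustment over genes and, separately, over subfamilies (threshold 0.05). The procedure was tested on simulated data. SE is the log2 fold change over the square root of F. Counting error is small at these depths except at low counts. Counts are printed for some of those genes only, and any level under 1 CPM rests on few counts.

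The members, the 36 gene lists and the rules were chosen with earlier results of these data known. Named were the 15 largest called increases and decreases that reached 10 CPM in the higher group, without overlap of libraries and a call that held without any 1 library, up to 5 called members of a list per direction, index genes and, of repeats, the 6 largest changes per direction. From the 15, predicted models were left out: symbols of Gm, AC or AL plus digits, symbols ending in Rik, and bare gene identifiers. Genes of symbol families and printed promoters were chosen after their values were seen. No list test was run. Counts of gene lists are to be read beside 13.7% lower and 8.64% higher over all genes tested. Those of repeat families are to be read beside 29.2% lower and 3.16% higher over all subfamilies tested. Alternatives were DESeq2 1.42.0 (size factors; Wald test), other filters, library sizes from genes or repeats only, a replicate block, a fit with 4 MII libraries, and leaving out each library. Same-numbered libraries did not deviate together (correlation -0.295 over 15386 genes), so numbers were not taken to pair them. Replicates were no copies of one another: a chi-square per degree of freedom of 21.2 for H3.3K4M and 15.9 for H3.3WT.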

Additional observations from a re-analysis of the deposited data

How the results depend on the processing

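Beside 3444 genes called, the DESeq2 Wald test called 2643, of which 2617 were among the 3444, and the fit without a filter on low counts 4126, of which 3396 were. A filter of 5 CPM in 2 libraries left 7725 genes, of which 1463 were called (685 higher, 778 lower). The fit over 8 oocyte libraries gave 725 genes and 50 subfamilies (2 higher, 48 lower), and the cause was not tested. Leaving out 1 library gave 2171 to 3783 genes and 128 to 227 subfamilies, the lowest of both without H3.3WT rep 1, and a difference in repeat share of 1.18 to 3.001 percentage points. A replicate block gave 2822 genes (929 higher, 1893 lower) and 169 subfamilies. The numbers were not taken as pairs, and crossed pairing, added after seeing the data because deviations of same-numbered libraries were negatively correlated, gave 5727 genes and 353 subfamilies. More calls were lower than higher for genes under every alternative listed, and for subfamilies under each except library sizes from repeats only (98 higher, 94 lower). Over all alternatives the share of lower calls was 9.83% to 38.6% in the lowest and 0.817% to 13.8% in the highest promoter CpG class. Of 185 named calls the DESeq2 Wald test lost 20, the replicate block 43, and the fits without H3.3K4M rep 1, H3.3K4M rep 2, H3.3WT rep 1 and H3.3WT rep 2 lost 28, 23, 69 and 43. With 2 libraries per group, changes of genes under 1 CPM rest on few counts.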

Other observations

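Further families, grouped by symbol stem after the values were seen, were lower in part. Of the 6 tested Tcl genes, which include the oocyte-expressed Tcl1b genes, 3 were lower and none higher: Tcl1b5 had 5.39 and 8.04 CPM in H3.3K4M libraries and 43.5 and 45.8 CPM in H3.3WT libraries (-2.72 ± 0.21), Tcl1b4 had 79.6 and 73.4 CPM with H3.3K4M against 188 and 214 CPM with H3.3WT (-1.40 ± 0.17) and Tcl1b3 had 199.7 and 206 CPM in H3.3K4M oocytes against 298 and 320.2 CPM in H3.3WT oocytes. The call of Tcl1b3 was lost without 1 library (edgeR adjusted p up to 0.171). Cytochrome P450 genes were lower in 9 of 20 and higher in 1, with Cyp2c29 at 0.367 and 1.04 CPM in H3.3K4M libraries and 7.24 and 9.18 CPM in H3.3WT libraries and Cyp2j12 at 0.449 and 0.336 CPM with H3.3K4M against 5.47 and 6.31 CPM with H3.3WT. Of 19 cyclic nucleotide phosphodiesterase genes (Pde) 7 were lower and none higher, and Pde10a had 0.0816 and 0.112 CPM in H3.3K4M oocytes against 1.49 and 1.76 CPM in H3.3WT oocytes (-3.98 ± 0.46). Dock genes, which encode activators of Rac and Cdc42, were lower in 5 of 11, and 1 was higher: Dock5 had 3.59 and 6.28 CPM in H3.3K4M libraries and 16.3 and 12.6 CPM in H3.3WT libraries, while Dock6 had 5.14 and 5.97 CPM with H3.3K4M against 0.856 and 0.915 CPM with H3.3WT (2.65 ± 0.26). The cytokine gene Il7 had 3.43 and 4.54 CPM in H3.3K4M oocytes against 17.4 and 18.3 CPM in H3.3WT oocytes (-2.15 ± 0.21). All of these shares stand beside 13.7% lower and 8.64% higher over all genes tested.

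Chromosomes differed in how their calls were split. Lower calls made up 20.1% of 662 genes on chromosome 13 and 18.2% of 960 on chromosome 1, with higher calls at 5.74% and 5.31%. On chromosome 17 lower calls made up 9.26% and higher calls 12.5% of 745 genes, and on chromosome 11 they made up 9.57% and 11.2% of 1066. The X chromosome had 16.9% lower and 7.61% higher of 486 genes. Clustered copies on a chromosome share reads and neighbourhood, so genes on it are not independent, and no test was made of the difference.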
